A study of Rattus norvegicus with 12 samples.

Results

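Glycolysis and hypoxia-response genes were followed in rat kidney fibroblasts that had been given the cytokine TGFB1, a plasmid for the histone deacetylase HDAC1, or both. The set was a list of 34 gene symbols looked up in the table of normalized counts, and 31 of them had a row there, among 14275 genes in that table. Ldha, Egln1 and Tpi1 were not analysed here. The study sequenced polyA RNA of NRK-49F cells, an established fibroblast line from normal rat kidney, after transfection and a further 24 h in medium with 0.5% serum. Its 12 libraries form 4 groups of 3: human HDAC1-Flag plasmid with 2 ng/ml TGFB1, empty vector pcDNA3.1 (EV) with 2 ng/ml TGFB1, HDAC1-Flag plasmid with vehicle, and EV with vehicle. All groups share the cell line, the low serum and a transfection, so there are no untransfected cells, and all values are from a single line. The groups were taken from the sample titles, because the treatment labels of the TGFB1 samples run as a numbered series and the design text speaks of TGFB1 for all cells. The labels do not say whether replicates were separate cultures, so the p-values measure only the spread between libraries, which may be technical.

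Glycolysis splits glucose into pyruvate in the cytosol: glucose enters through the Slc2a transporters, is committed by hexokinase and phosphofructokinase, and leaves as lactate through the Slc16a transporters or as pyruvate into the mitochondria. The oxygen-sensitive factors HIF1A and EPAS1 (also called HIF-2 alpha) raise many of these genes when the EGLN prolyl hydroxylases that mark them for breakdown lack oxygen, together with genes of vessel growth, mitophagy and growth restraint. Myofibroblasts, the matrix-producing cells into which TGF-beta turns fibroblasts, are known for active glycolysis.

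Library totals ran from 18397093 to 36652084 counts. Levels are CPM, counts relative to the library total, scaled with TMM. Transcript lengths were not used here, so levels were compared between groups and never between genes. Hdac1, the check of the plasmid, was at 464 ± 43.5 CPM with HDAC1 and TGFB1 against 267 ± 21.1 CPM with EV and TGFB1, and at 421 ± 43.3 CPM with HDAC1 in vehicle against 209.7 ± 4.13 CPM with EV in vehicle (SD, n = 3 each). The named copy Hdac1l was at 802 to 1367 CPM in the HDAC1 libraries and 0.530 to 15.1 CPM in the EV libraries, and how reads of the human plasmid were divided between both genes was not tested. The TGFB1 target Ccn2, a matricellular protein, was at 680.2 to 1266 CPM in the TGFB1 libraries and 181 to 327 CPM in the vehicle libraries. Col1a1 marked the cells as collagen-producing at 2777 to 6636 CPM, while the fibroblast markers Thy1 and Lum were not analysed here. Of 10 fibroblast markers, 8 had a row, and Dcn among them was at only 0.156 to 0.857 CPM. Transcripts of other tissues differed between libraries. The 20 heart markers summed to 143 to 159.6 CPM with HDAC1 and TGFB1, 419 to 531 with EV and TGFB1, 228 to 443 with HDAC1 in vehicle and 65.0 to 397 with EV in vehicle, where replicate 1 alone was at 65.0 CPM. Of 20 brain markers, 18 had a row, and they summed to 43.0 to 44.2, 119.8 to 125, 77.8 to 116 and 21.6 to 102 CPM in the same order of groups. Liver markers summed to 50.8 CPM in HDAC1 vehicle replicate 1 and to at most 2.16 CPM in the other libraries, with 5 of 6 markers having a row. Symbols were taken from the table of normalized counts, so every marker with a row had at least 100 counts in all.

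With TGFB1, more of the glycolysis and hypoxia-response genes fell than rose, with either plasmid. With HDAC1, 20 of the 31 genes fell, 5 rose and 6 were not called (edgeR adjusted p under 0.05 over all 14601 genes tested, background 49.1% called, 24.2% lower and 24.9% higher). With EV, 13 fell, 4 rose and 14 were not called (background 50.9% called, 25.0% lower and 25.9% higher). The median log2 fold change of the 31 genes was -0.30 with HDAC1 and -0.15 with EV, beside -0.019 and 0.012 over all genes tested. Called lower with both plasmids were 13 genes: Ndrg1, Adm, Ddit4, Hif1a and Bnip3 of the hypoxia group, Hk1, Gpi, Pfkm, Pfkp, Aldoa, Pgk1 and Eno2 of glycolysis, and the lactate carrier Slc16a1. Called higher with both were 3: Pfkfb4, Slc2a3 and Vegfa. The share of all genes tested that was called the same way with both plasmids was not computed, so these joint counts have no background. The TGFB1 comparisons with HDAC1 and with EV share no library. In these bulk libraries, fewer cells of a type and less RNA per cell cannot be told apart.

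**Figure D1:**
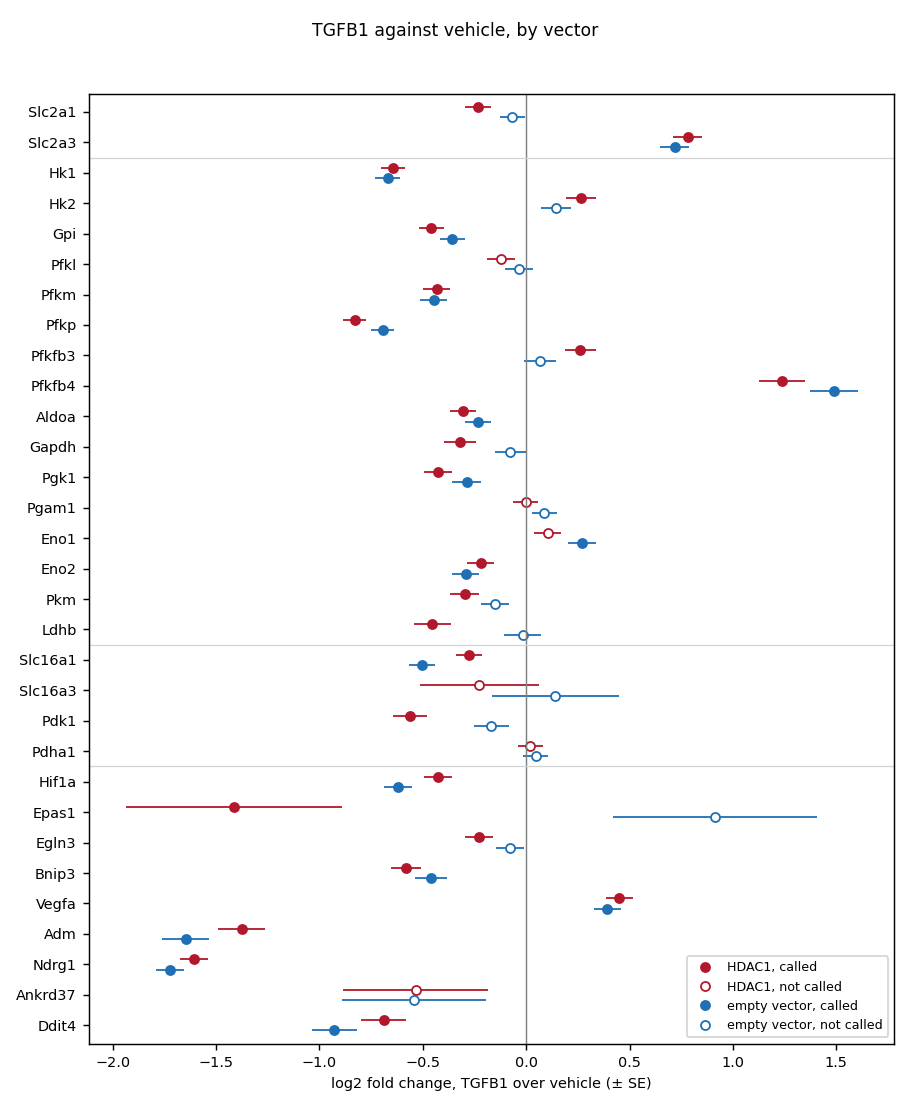
Log2 fold change of each of the 31 genes with TGFB1 over vehicle (horizontal axis, bars are ± 1 SE from edgeR), with HDAC1 and with EV (empty vector). Ndrg1 and Adm lie farthest to the left with both plasmids, and Pfkfb4, at 1.24 with HDAC1 and 1.49 with EV, farthest to the right.

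Among the hypoxia-response genes, Ndrg1 and Adm fell most with TGFB1. Ndrg1, a growth-restraining gene induced by low oxygen, was at 186, 186 and 188 CPM in the HDAC1 TGFB1 libraries against 589.7, 557 and 561 CPM in the HDAC1 vehicle libraries, and 174, 197 and 174 CPM in the EV TGFB1 libraries against 629, 563 and 604 CPM in the EV vehicle libraries. Every TGFB1 library lay below every vehicle library. The log2 fold change was -1.61 ± 0.066 with HDAC1 and -1.72 ± 0.066 with EV (edgeR adjusted p = 5.78e-14 and 2.36e-14). Adm, which encodes the vessel-dilating peptide adrenomedullin, was at 6.84, 5.99 and 5.08 CPM in the HDAC1 TGFB1 libraries against 16.3, 13.9 and 16.1 CPM in the HDAC1 vehicle libraries, and 6.33, 6.33 and 6.20 CPM in the EV TGFB1 libraries against 18.9, 20.9 and 19.4 CPM in the EV vehicle libraries. It too was lower in every TGFB1 library than in any vehicle library, by -1.38 ± 0.11 with HDAC1 and -1.65 ± 0.11 with EV on the log2 scale (SE, edgeR adjusted p = 2.68e-09 and 1.35e-10). Ddit4, an inhibitor of mTORC1 signalling also known as REDD1, was at 34.1, 32.7 and 32.0 CPM in the HDAC1 TGFB1 libraries against 43.5, 63.4 and 52.9 CPM in the HDAC1 vehicle libraries, and 33.7, 29.7 and 37.7 CPM in the EV TGFB1 libraries against 67.9, 61.2 and 63.1 CPM in the EV vehicle libraries. HDAC1 vehicle replicate 1, at 43.5 CPM, was the lowest of the vehicle libraries and still above all TGFB1 libraries, and the log2 fold change was -0.69 ± 0.11 with HDAC1 and -0.93 ± 0.11 with EV (edgeR adjusted p = 3.69e-05 and 9.00e-07).

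The oxygen-sensitive factor Hif1a itself was lower with TGFB1, at 204, 183 and 184 CPM in the HDAC1 TGFB1 libraries against 260.1, 246 and 261 CPM in the HDAC1 vehicle libraries, and 194, 202 and 173 CPM in the EV TGFB1 libraries against 291, 301 and 282 CPM in the EV vehicle libraries. The groups did not overlap with either plasmid, and the log2 fold change was -0.43 ± 0.067 with HDAC1 and -0.62 ± 0.067 with EV (edgeR adjusted p = 2.05e-05 and 1.27e-07). These are transcript levels, and the HIF1A protein, whose stability oxygen controls, was not measured. Bnip3, which marks mitochondria for removal, was at 35.7, 33.1 and 33.2 CPM in the HDAC1 TGFB1 libraries against 56.0, 48.5 and 47.6 CPM in the HDAC1 vehicle libraries, and 29.9, 32.8 and 30.6 CPM in the EV TGFB1 libraries against 42.6, 42.9 and 42.9 CPM in the EV vehicle libraries. Its TGFB1 libraries were again all below its vehicle libraries, with log2 fold changes of -0.58 ± 0.074 with HDAC1 and -0.46 ± 0.076 with EV (edgeR adjusted p = 1.63e-06 and 3.24e-05). Vegfa, the vessel growth factor, moved the other way and was at 179.7, 184 and 198 CPM in the HDAC1 TGFB1 libraries against 147, 127 and 137 CPM in the HDAC1 vehicle libraries, and 176, 172 and 171 CPM in the EV TGFB1 libraries against 139, 125 and 129.9 CPM in the EV vehicle libraries. All 6 TGFB1 libraries were above all 6 vehicle libraries (0.45 ± 0.064 with HDAC1 and 0.39 ± 0.065 with EV, edgeR adjusted p = 6.61e-06 and 3.23e-05).

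Egln3, a prolyl hydroxylase that is itself a HIF target, fell with HDAC1, to 62.7 ± 1.10 CPM with TGFB1 against 73.5 ± 0.952 CPM in vehicle (log2 fold change -0.23, edgeR adjusted p = 0.00801). With EV it averaged 77.5 ± 4.91 CPM with TGFB1 and 81.8 ± 6.46 CPM in vehicle and was not called (-0.079, edgeR adjusted p = 0.340), but it was called lower without EV TGFB1 replicate 3 (-0.16, edgeR adjusted p = 0.0460). Ankrd37, a HIF target of unsettled function, had 14 to 37 counts per library and was not called (-0.54 with HDAC1 and -0.54 with EV, edgeR adjusted p = 0.218 and 0.205). Epas1 had only 2 to 28 counts per library, and its values are given with the comparison of HDAC1 and EV. Their standard errors for TGFB1 with HDAC1, 0.35 and 0.52 on the log2 scale, were wider than those of the other 29 genes.

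**Figure D2:**
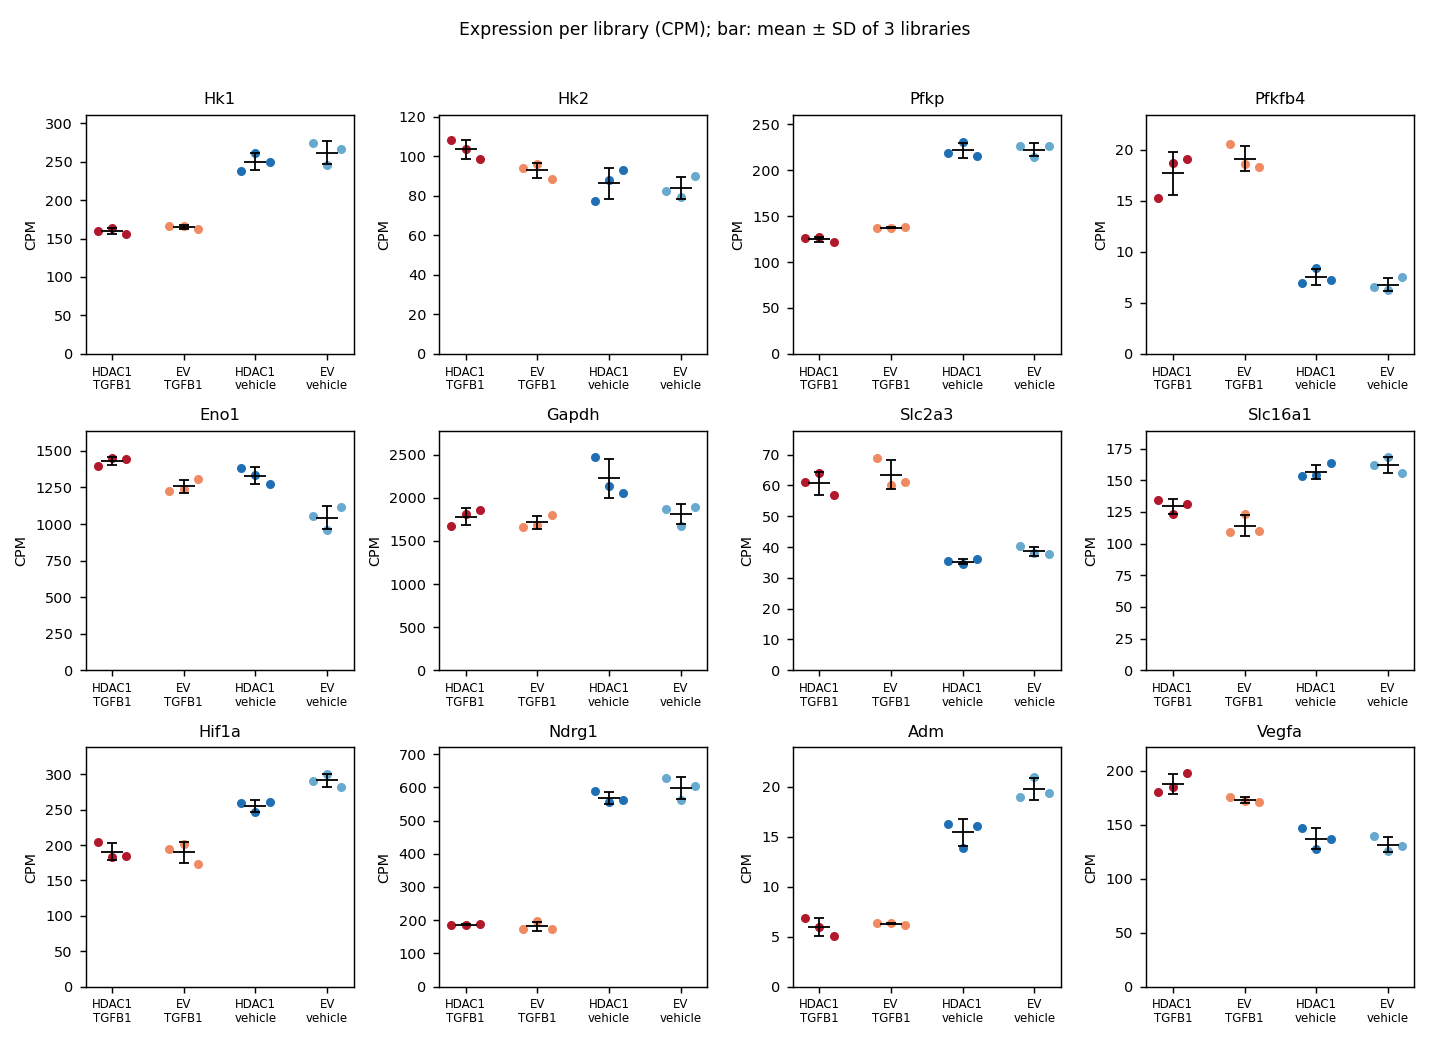
CPM of the genes named in each panel, for each library (points) with the group mean and SD (vertical axis from 0), in the order HDAC1 TGFB1, EV TGFB1, HDAC1 vehicle and EV vehicle (EV = empty vector). For Ndrg1, the 6 TGFB1 libraries lie at 174 to 197 CPM, below the 6 vehicle libraries at 557 to 629 CPM.

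The start-site regions of these genes were searched for the core of the hypoxia response element to show what the start sites of genes that moved together hold. The sequences are RefSeq promoters of the rat assembly GRCr8, from 250 bases before to 50 bases after the annotated start, 5′ to 3′ on the gene's strand, and the motif, ACGTG or GCGTG read on either strand (CACGT or CACGC), stands in capitals. A CACGTG is counted as 2 overlapping matches. Shown are 2 genes that fell with TGFB1 and hold 4 matches each, Bnip3 and the lactate carrier Slc16a1, then Adm, which fell by more and holds 0, and Pfkfb4, which rose and holds 0.
Bnip3 (chr1:203154913-203155212, minus strand): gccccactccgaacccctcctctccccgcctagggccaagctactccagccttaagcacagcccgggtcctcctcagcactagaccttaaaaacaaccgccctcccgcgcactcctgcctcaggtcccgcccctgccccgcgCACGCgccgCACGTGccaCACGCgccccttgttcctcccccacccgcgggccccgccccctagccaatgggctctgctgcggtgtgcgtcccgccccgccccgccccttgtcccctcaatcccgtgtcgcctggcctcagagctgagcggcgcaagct
Slc16a1 (chr2:194812410-194812709, plus strand): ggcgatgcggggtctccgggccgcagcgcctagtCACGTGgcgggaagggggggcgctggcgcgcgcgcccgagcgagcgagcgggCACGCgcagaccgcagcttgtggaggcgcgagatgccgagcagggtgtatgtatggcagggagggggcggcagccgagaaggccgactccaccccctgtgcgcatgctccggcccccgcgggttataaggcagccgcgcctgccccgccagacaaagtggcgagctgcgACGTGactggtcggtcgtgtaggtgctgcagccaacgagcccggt
Adm (chr1:174179950-174180249, plus strand): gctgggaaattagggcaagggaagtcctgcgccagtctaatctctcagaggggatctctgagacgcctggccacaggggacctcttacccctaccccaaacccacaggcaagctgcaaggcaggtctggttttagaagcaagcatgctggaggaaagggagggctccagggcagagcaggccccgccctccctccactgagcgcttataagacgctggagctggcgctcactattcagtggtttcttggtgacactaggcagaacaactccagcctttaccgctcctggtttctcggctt
Pfkfb4 (chr8:118525916-118526215, plus strand): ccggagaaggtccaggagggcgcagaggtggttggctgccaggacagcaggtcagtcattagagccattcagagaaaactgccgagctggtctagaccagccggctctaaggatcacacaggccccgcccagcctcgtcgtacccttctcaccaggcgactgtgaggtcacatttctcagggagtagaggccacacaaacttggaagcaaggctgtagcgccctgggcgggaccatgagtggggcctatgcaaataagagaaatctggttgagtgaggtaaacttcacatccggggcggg
Of the 31 genes, 28 had a promoter in the table (Ndrg1, Slc2a3 and Pgk1 had none), and 20 of these, 71.43%, held at least 1 match, counting a gene with several starts once. The share was 62.71% of 10110 tested genes with a promoter and 41.64% of all 33469 promoters of the same length. Median GC content was 62.92%, 60.83% and 51.67%. Among the genes lower with TGFB1 with both plasmids, 10 of 11 with a promoter held a match, and among those higher with both, 0 of 2 did. Of the other genes with a promoter, Ankrd37, Eno1, Gapdh, Ldhb, Pdha1, Pdk1, Pfkfb3, Pfkl, Pgam1 and Slc2a1 held a match. Egln3, Epas1, Hk2, Pkm and Slc16a3 held none. Sequence outside this window was not searched, so a gene without a match here may hold one elsewhere. A match is a description of letters, and binding of HIF was not measured.

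At glucose entry, the transporters parted. Slc2a3 (GLUT3), a high-affinity glucose transporter, was at 61.0, 64.1 and 56.9 CPM in the HDAC1 TGFB1 libraries against 35.5, 34.4 and 36.0 CPM in the HDAC1 vehicle libraries, and 68.8, 60.2 and 61.2 CPM in the EV TGFB1 libraries against 40.2, 37.9 and 37.6 CPM in the EV vehicle libraries. Every TGFB1 library was above every vehicle library, and the log2 fold change was 0.78 ± 0.071 with HDAC1 and 0.72 ± 0.072 with EV (edgeR adjusted p = 1.38e-08 and 4.23e-08). Slc2a1 (GLUT1), the widespread basal transporter, fell with HDAC1 to 154 ± 6.08 CPM with TGFB1 against 181 ± 6.09 CPM in vehicle (-0.23, edgeR adjusted p = 0.00373). With EV it averaged 171 ± 3.48 and 179 ± 12.2 CPM with TGFB1 and in vehicle and was not called (-0.067, edgeR adjusted p = 0.379).

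Hexokinase traps glucose as glucose 6-phosphate. Hk1, the constitutive isozyme, was at 159, 164 and 156 CPM in the HDAC1 TGFB1 libraries against 238, 261 and 250.1 CPM in the HDAC1 vehicle libraries, and 166, 166 and 162 CPM in the EV TGFB1 libraries against 274, 245 and 266 CPM in the EV vehicle libraries. Its TGFB1 libraries were all lower (-0.64 ± 0.06 with HDAC1 and -0.67 ± 0.06 with EV, edgeR adjusted p = 1.90e-08 and 9.03e-09). Hk2, the inducible isozyme, rose with HDAC1, at 108, 104 and 98.6 CPM with TGFB1 against 77.5, 87.8 and 93.3 CPM in vehicle (0.26 ± 0.072, edgeR adjusted p = 0.00461). That call ended without HDAC1 TGFB1 replicate 1 (0.20). With EV, Hk2 was at 94.1, 95.9 and 88.4 CPM with TGFB1 against 82.2, 79.5 and 90.1 CPM in vehicle, where the groups overlapped (0.14, edgeR adjusted p = 0.106). It was called higher there without EV vehicle replicate 3 (0.20, edgeR adjusted p = 0.0438). Gpi, the isomerase that makes fructose 6-phosphate, fell to 308 ± 5.29 CPM with HDAC1 and TGFB1 against 423 ± 7.91 CPM with HDAC1 in vehicle, and to 318 ± 18.6 CPM with EV and TGFB1 against 407 ± 14.3 CPM with EV in vehicle (-0.46 ± 0.06 with HDAC1 and -0.36 ± 0.06 with EV, edgeR adjusted p = 2.02e-06 and 3.88e-05).

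Phosphofructokinase, the committed step, has 3 subunit genes, and 2 of them fell. Pfkp, the platelet-type subunit, was at 126, 127 and 122 CPM in the HDAC1 TGFB1 libraries against 219, 231 and 216 CPM in the HDAC1 vehicle libraries, and 137, 137 and 139 CPM in the EV TGFB1 libraries against 227, 215 and 226 CPM in the EV vehicle libraries. No TGFB1 library reached a vehicle library (-0.83 ± 0.056 with HDAC1 and -0.69 ± 0.056 with EV, edgeR adjusted p = 1.31e-10 and 1.86e-09). Pfkm, the muscle-type subunit, averaged 71.6 ± 2.27 CPM with HDAC1 and TGFB1 against 96.7 ± 8.68 CPM with HDAC1 in vehicle, and 77.5 ± 2.57 CPM with EV and TGFB1 against 106 ± 1.25 CPM with EV in vehicle (-0.43 ± 0.066 with HDAC1 and -0.45 ± 0.066 with EV, edgeR adjusted p = 1.52e-05 and 8.01e-06). Pfkl, the liver-type subunit, averaged 147 ± 3.95 CPM with HDAC1 and TGFB1 against 160.4 ± 10.3 CPM with HDAC1 in vehicle, and 142 ± 4.55 CPM with EV and TGFB1 against 146 ± 12.5 CPM with EV in vehicle and was not called (-0.12 ± 0.068 with HDAC1 and -0.037 ± 0.068 with EV, edgeR adjusted p = 0.148 and 0.675). Pfkfb3 and Pfkfb4 make and break fructose 2,6-bisphosphate, the strongest activator of phosphofructokinase. Pfkfb4 was at 15.3, 18.7 and 19.1 CPM in the HDAC1 TGFB1 libraries against 6.95, 8.45 and 7.25 CPM in the HDAC1 vehicle libraries, and 20.6, 18.6 and 18.3 CPM in the EV TGFB1 libraries against 6.58, 6.26 and 7.51 CPM in the EV vehicle libraries. All TGFB1 libraries were above all vehicle libraries, with log2 fold changes of 1.24 ± 0.11 with HDAC1 and 1.49 ± 0.12 with EV (edgeR adjusted p = 1.38e-08 and 1.16e-09). Pfkfb3 rose with HDAC1 (0.26, edgeR adjusted p = 0.00727) and with EV stood at 0.066 (edgeR adjusted p = 0.496). The Pfkfb3 call ended with the log2 of the heart marker sum as a covariate in the fit (0.20, edgeR adjusted p = 0.0960).

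From aldolase to pyruvate kinase, 3 of the 7 genes measured fell with both plasmids. Aldoa, the main aldolase outside liver and brain, averaged 693 ± 18.6 CPM with HDAC1 and TGFB1 against 856 ± 26.3 CPM with HDAC1 in vehicle, and 716 ± 44.3 CPM with EV and TGFB1 against 841 ± 37.8 CPM with EV in vehicle (-0.30 ± 0.063 with HDAC1 and -0.23 ± 0.063 with EV, edgeR adjusted p = 0.000452 and 0.00400). Pgk1, which makes the first ATP of the pathway, averaged 664 ± 38.0 CPM with HDAC1 and TGFB1 against 892 ± 31.0 CPM with HDAC1 in vehicle, and 649.5 ± 51.8 CPM with EV and TGFB1 against 793 ± 42.6 CPM with EV in vehicle (-0.43 ± 0.069 with HDAC1 and -0.29 ± 0.069 with EV, edgeR adjusted p = 3.21e-05 and 0.00156). Eno2, the enolase typical of neurons, averaged 69.2 ± 2.75 CPM with HDAC1 and TGFB1 against 80.4 ± 5.16 CPM with HDAC1 in vehicle, and 68.2 ± 3.39 CPM with EV and TGFB1 against 83.5 ± 3.00 CPM with EV in vehicle (-0.22 ± 0.066 with HDAC1 and -0.29 ± 0.066 with EV, edgeR adjusted p = 0.00893 and 0.000860). The Eno2 call with HDAC1 ended without HDAC1 vehicle replicate 1 (-0.16). Gapdh, the oxidizing step, and Pkm, pyruvate kinase, fell with HDAC1 (-0.32 and -0.30, edgeR adjusted p = 0.00146 and 0.00140) and with EV had -0.077 and -0.15 (edgeR adjusted p = 0.415 and 0.0776). Pkm with EV was called by DESeq2 (-0.15) and, by edgeR, without EV vehicle replicate 2 (-0.22) or EV TGFB1 replicate 3 (-0.20). Eno1, the common enolase, rose with EV to 1258 ± 44.3 CPM with TGFB1 against 1043 ± 80.2 CPM in vehicle (0.27, edgeR adjusted p = 0.00176). With HDAC1 it averaged 1431 ± 30.5 and 1331 ± 56.6 CPM with TGFB1 and in vehicle (0.10, edgeR adjusted p = 0.199). Pgam1, the mutase before enolase, was not called with either plasmid (-0.0026 and 0.087, edgeR adjusted p = 0.977 and 0.242).

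Several of these enzymes have near-identical copies with rows of their own, picked by symbol after the names in the table were seen, and how reads fitting more than 1 gene were counted is not given in the sources used here. Eno1-ps1 was at 21.6 to 44.1 CPM and rose with TGFB1 with EV (0.37, edgeR adjusted p = 0.00447). With HDAC1 it was not called with TGFB1 (0.22, edgeR adjusted p = 0.0649). Gapdhl10 was at 2.21 to 3.82 CPM, Pkml1 at 8.35 to 12.5 CPM and Pgk1l1 at 0.441 to 4.78 CPM. In the HDAC1 libraries TGFB1 lowered Pkml1 (-0.36, edgeR adjusted p = 0.0110), Pgk1l1 (-2.10, edgeR adjusted p = 0.00361) and the Tpi1 copy Tpi1l2 (-0.65, edgeR adjusted p = 0.0111). With EV these copies were not called (edgeR adjusted p = 0.0670, 0.880 and 0.0826). Gapdhl10 was called with neither plasmid. The levels of Eno1, Gapdh, Pkm and Pgk1 are therefore uncertain by what such copies took. Ldhal1, a row named as an Ldha-like gene, was at 886 to 1111 CPM and was not called with TGFB1 (-0.07 with HDAC1 and 0.056 with EV, edgeR adjusted p = 0.385 and 0.496). Whether reads of Ldha were counted there was not tested.

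At the end of the pathway, Slc16a1 (MCT1), a carrier of lactate and pyruvate, was at 134, 123 and 131 CPM in the HDAC1 TGFB1 libraries against 153, 154 and 163 CPM in the HDAC1 vehicle libraries, and 109, 124 and 109.9 CPM in the EV TGFB1 libraries against 162, 168 and 156 CPM in the EV vehicle libraries. All TGFB1 libraries lay below all vehicle libraries (-0.28 ± 0.064 with HDAC1 and -0.50 ± 0.064 with EV, edgeR adjusted p = 0.00125 and 1.27e-06). Slc16a3 (MCT4), the lactate exporter of highly glycolytic cells, had 19 to 79 counts per library and was not called (edgeR adjusted p = 0.538 and 0.723). Ldhb, the lactate dehydrogenase subunit typical of heart, fell with HDAC1, to 20.1, 18.6 and 21.3 CPM with TGFB1 against 26.4, 28.4 and 27.4 CPM in vehicle (-0.45 ± 0.088, edgeR adjusted p = 0.000235); with EV it stood at -0.016 (edgeR adjusted p = 0.891). Heart marker sums in the HDAC1 libraries were also lower with TGFB1, and with their log2 as a covariate Ldhb was at -0.35 (edgeR adjusted p = 0.00866). Pdk1, a kinase that shuts pyruvate dehydrogenase, fell with HDAC1, to 24.8 ± 1.85 CPM with TGFB1 against 36.5 ± 1.17 CPM in vehicle (-0.56, edgeR adjusted p = 1.05e-05), and with EV had -0.17 (edgeR adjusted p = 0.101). With EV it was called lower without EV vehicle replicate 1 (-0.26, edgeR adjusted p = 0.0211) and with the heart covariate (-0.24, edgeR adjusted p = 0.0445). Pdha1, the subunit it acts on, was not called with either plasmid (0.02 and 0.046, edgeR adjusted p = 0.804 and 0.550).

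Isoform choice was followed as the share of a family's counts held by each member. Such a share of counts is not a share of molecules, because transcripts differ in length. The size of its change in percentage points between groups depends on these lengths too. Hk2 made up 39.3 ± 1.01% of Hk1 plus Hk2 with HDAC1 and TGFB1, 36.0 ± 0.658% with EV and TGFB1, 25.6 ± 1.37% with HDAC1 in vehicle and 24.3 ± 1.12% with EV in vehicle (SD, n = 3 each). TGFB1 raised it by 12.7 percentage points over both plasmids. Within phosphofructokinase, Pfkl held 42.9 ± 1.06%, 39.8 ± 0.506%, 33.5 ± 1.38% and 30.7 ± 1.50% in the same order of groups, and Pfkp held 36.3 ± 0.462%, 38.5 ± 0.657%, 46.4 ± 1.09% and 47.0 ± 0.384%. Pfkl thus gained 9.23 points with TGFB1 and Pfkp lost about as much, a difference of -9.25 points. Pfkfb4 held 33.7 ± 2.40% of Pfkfb3 plus Pfkfb4 with HDAC1 and TGFB1, 36.6 ± 1.42% with EV and TGFB1, 20.7 ± 0.938% with HDAC1 in vehicle and 17.7 ± 1.71% with EV in vehicle, a gain of 16.0 points with TGFB1. Slc2a3 held 28.2 ± 1.13%, 27.0 ± 1.14%, 16.3 ± 0.728% and 17.8 ± 0.891% of Slc2a1 plus Slc2a3, a gain of 10.6 points. Eno2 changed by -1.69 points of Eno1 plus Eno2 with TGFB1.

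Each of these 6 TGFB1 differences had p = 0.005 in an exact two-sided permutation test over libraries within plasmids (400 regroupings, smallest possible p 0.005), and adjusted p = 0.0113 over the 18 tests of 9 shares and 2 factors. TGFB1 did not move the share of Pfkm (0.011 points, exact permutation adjusted p = 0.990), Slc16a3 (0.23 points, adjusted p = 0.308) or Epas1 (0.070 points, adjusted p = 0.564) past the threshold. HDAC1 moved 5 shares over both treatments: Pfkl by 2.93 points and Eno2 by -1.13 points (exact permutation adjusted p = 0.0113 each), Pfkm by -1.54 points (adjusted p = 0.0200), Hk2 by 2.30 points and Pfkp by -1.40 points (adjusted p = 0.0327 each). The shares of Pfkl, Pfkm and Pfkp add up to the whole, so their changes with either factor are not separate results. None of these 5 genes was itself called for HDAC1 in either treatment in the fit to all libraries. In vehicle the Pfkp share was 46.4 ± 1.09% with HDAC1 and 47.0 ± 0.384% with EV, and with TGFB1 36.3 ± 0.462% and 38.5 ± 0.657%. The Hk2 call for HDAC1 ended without HDAC1 vehicle replicate 3 (1.92 points) or EV vehicle replicate 1 (2.00), and the Pfkp call ended in 7 of 12 fits without 1 library, at -1.41 to -1.22 points. Eno2 is abundant in brain too, and the part of brain transcripts in its share was not tested. Shares of Ldhb and Egln3 could not be formed.

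**Figure D3:**
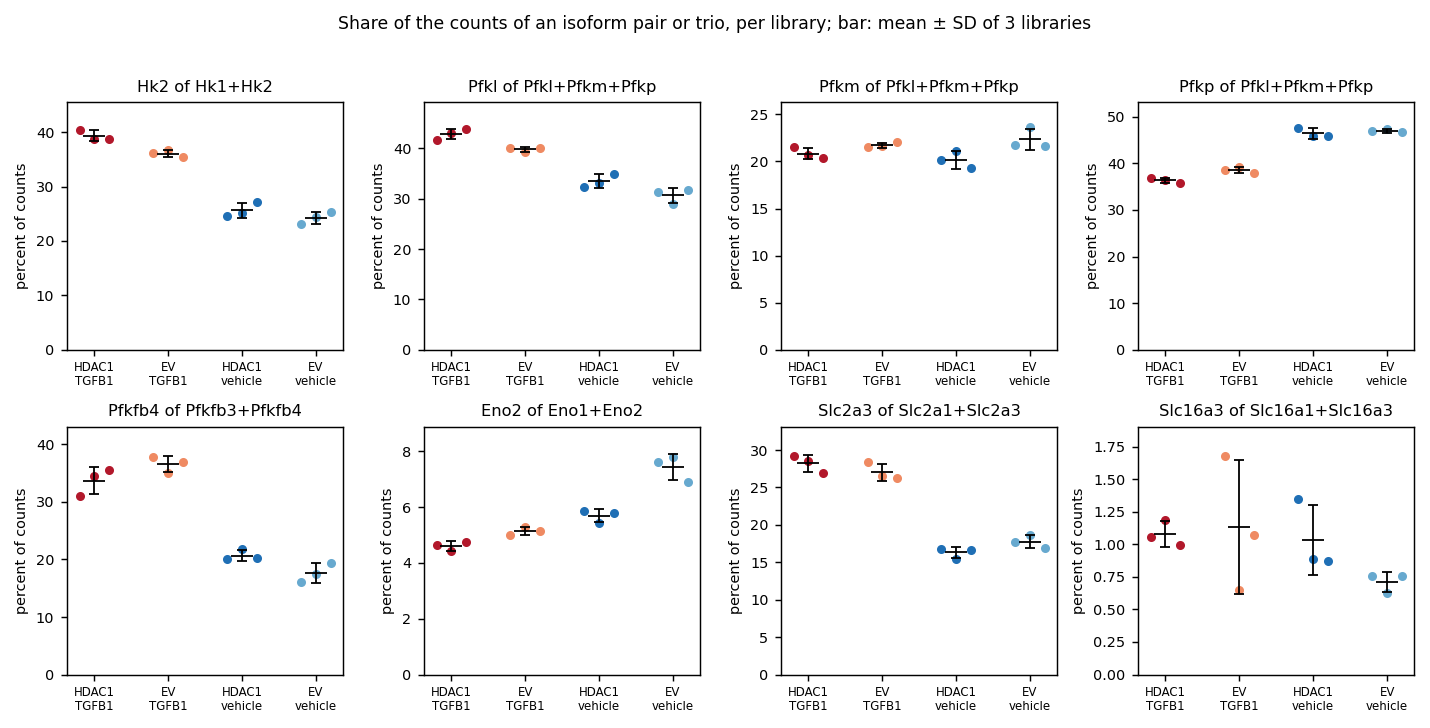
Share of family counts in percent (vertical axis) held by the isoform named in each panel, for each library (points) with group mean and SD, in the order HDAC1 TGFB1, EV TGFB1, HDAC1 vehicle and EV vehicle (EV = empty vector). Hk2 lies at 35.3 to 40.5% in the 6 TGFB1 libraries, above 23.1 to 27.2% in the 6 vehicle libraries.

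HDAC1 was compared with EV in vehicle to ask what the deacetylase did without added cytokine. Of the 31 genes, 6 rose, 1 fell and 24 were not called (background 14.0% called, 6.64% higher and 7.32% lower). The genes that rose were 4 enzymes of lower glycolysis, Eno1, Gapdh, Pkm and Pgam1, with Pdk1 and Bnip3. Marker sums of other lists differed in the same comparison without overlap: the 3 immune markers with a row, of 8 listed, summed to 92.8 to 111 CPM in the HDAC1 vehicle libraries against 151 to 154 CPM in the EV vehicle libraries, with 2 of 3 called lower. Cd14 alone made up most of these immune sums, at 84.5 to 105 CPM with HDAC1 and 142 to 143 CPM with EV. The 8 fibroblast markers with a row summed to 11673 to 13740 CPM with HDAC1 against 14786 to 16858 CPM with EV, with 4 of 8 called lower and 1 higher. Their part in the differences of the listed genes was not tested. Eno1 was at 1384, 1337 and 1272 CPM in the HDAC1 vehicle libraries against 1054, 958 and 1117 CPM in the EV vehicle libraries. Its groups did not overlap (0.35 ± 0.066, edgeR adjusted p = 0.00107). Pdk1 was at 37.8, 35.5 and 36.3 CPM in the HDAC1 vehicle libraries against 25.5, 28.8 and 31.4 CPM in the EV vehicle libraries, again without overlap (0.35 ± 0.082, edgeR adjusted p = 0.00542). Pkm was at 1939, 1940.3 and 1810.3 CPM in the HDAC1 vehicle libraries against 1611, 1388 and 1672 CPM in the EV vehicle libraries (0.28 ± 0.07, edgeR adjusted p = 0.00836). Gapdh, Bnip3 and Pgam1 rose by 0.30, 0.25 and 0.22 (edgeR adjusted p = 0.0109, 0.0271 and 0.0184). Adm fell, at 16.3, 13.9 and 16.1 CPM in the HDAC1 vehicle libraries against 18.9, 20.9 and 19.4 CPM in the EV vehicle libraries (-0.35 ± 0.10, edgeR adjusted p = 0.0223).

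These HDAC1 differences are small, and 5 of the 7 calls ended when single libraries were left out. Without HDAC1 vehicle replicate 1 or EV vehicle replicate 1, 3 genes were called higher: Pgam1 (0.19 and 0.23) and Bnip3 (0.18 and 0.25) lost their calls both times, Gapdh without the HDAC1 library (0.23) and Pdk1 without the EV library (0.28). The Adm call ended without HDAC1 vehicle replicate 2 (-0.28) or 3 (-0.37) and without EV vehicle replicate 2 (-0.29) or 3 (-0.35). Eno1 and Pkm remained called in all 6 fits. Genes that became called lower without HDAC1 vehicle replicate 2 were Ddit4 (-0.41, edgeR adjusted p = 0.00702, against -0.27 in all libraries) and Pfkm (-0.20, edgeR adjusted p = 0.0431). HDAC1 vehicle replicate 1 is the library with liver transcripts (Alb 27.4 CPM), and EV vehicle replicate 1 the one with the lowest heart and brain sums. With the log2 heart marker sum as covariate, all 7 calls held, from Eno1 (0.36, edgeR adjusted p = 0.00369) to Adm (-0.36, edgeR adjusted p = 0.0382). The part of liver transcripts in these differences was not tested. The copies Eno1-ps1 (0.51, edgeR adjusted p = 0.00144) and Ldhal1 (0.25, edgeR adjusted p = 0.0132) were also higher with HDAC1 in vehicle. With TGFB1 present, Eno1-ps1 was again higher with HDAC1 (0.36, edgeR adjusted p = 0.0319), and Ldhal1 was not called (0.12, edgeR adjusted p = 0.274).

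**Figure D4:**
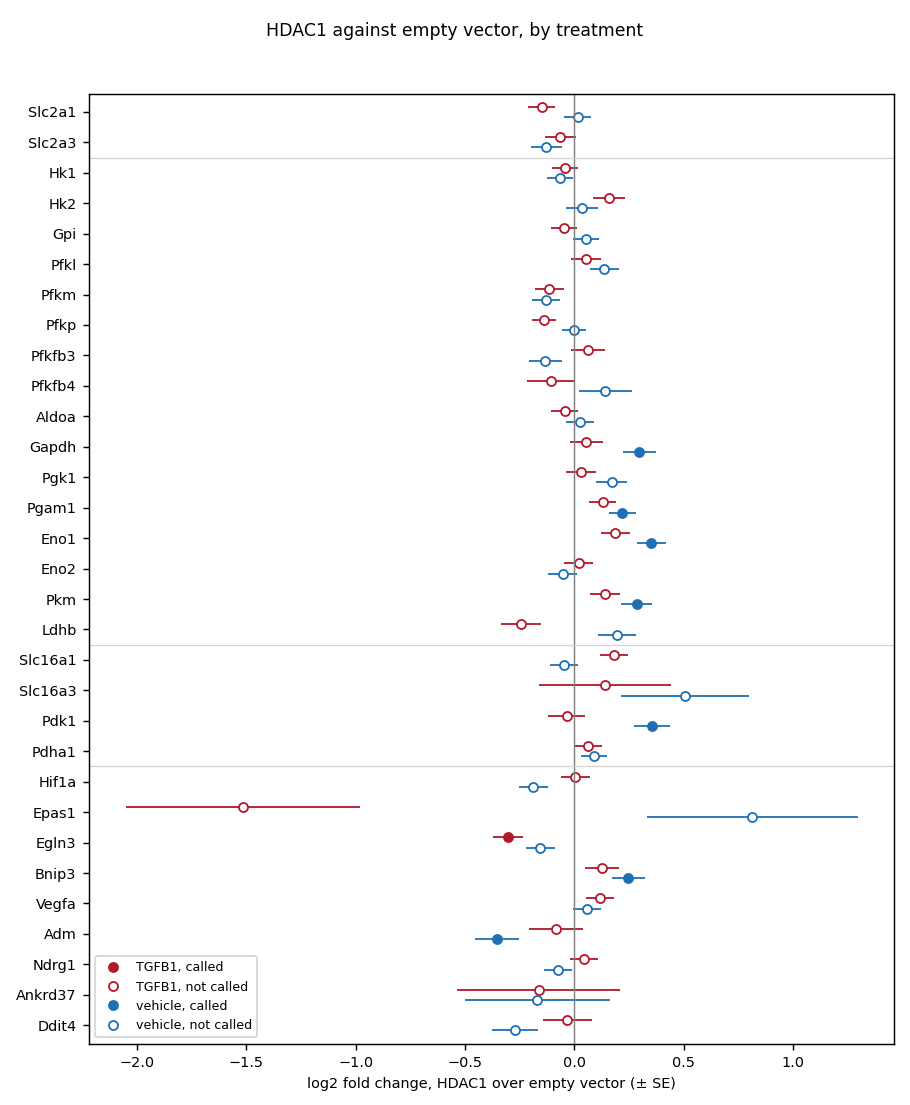
Log2 fold change of each of the 31 genes with HDAC1 over EV, the empty vector (horizontal axis, bars are ± 1 SE from edgeR), with TGFB1 and in vehicle. In vehicle, Eno1 (0.35) and Pdk1 (0.35) were called higher and Adm (-0.35) lower, while with TGFB1 only Egln3 (-0.30) was called, and Epas1 has by far the widest bars.

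With TGFB1 present, HDAC1 against EV gave 0 higher genes, 1 lower and 30 not called among the 31 (background 6.53% called, 2.17% higher and 4.36% lower). By edgeR, 9 had an unadjusted p under 0.05 in either direction, and the share of all genes at that threshold was not computed. DESeq2 called 2 of the 31 genes higher, Eno1 (0.20) and Slc16a1 (0.19), and edgeR called Slc16a1 without EV TGFB1 replicate 2 (0.26, edgeR adjusted p = 0.0208). The gene that fell was Egln3, at 61.7, 63.9 and 62.4 CPM in the HDAC1 TGFB1 libraries against 75.0, 74.3 and 83.2 CPM in the EV TGFB1 libraries. Its groups did not overlap (-0.30 ± 0.068, edgeR adjusted p = 0.0110). The call ended without HDAC1 TGFB1 replicate 1 (-0.30) or 3 (-0.30) and with the heart marker covariate (-0.36 ± 0.092, edgeR adjusted p = 0.0766). Heart sums did not overlap between these groups, so the fit with the covariate cannot fully separate them from HDAC1. Of the genes that rose with HDAC1 in vehicle, Eno1 had 0.19 (edgeR adjusted p = 0.0935), Pkm 0.14 (0.240) and Pdk1 -0.036 (0.848) with TGFB1. Whether HDAC1 acted differently in vehicle and with TGFB1 was tested directly as an interaction. None of the 31 genes was called by edgeR or by DESeq2 (background 0.479% called by edgeR, 0.342% lower and 0.137% higher). At an unadjusted edgeR p under 0.05 there were 5 of the 31, and the share of all genes at that threshold was not computed. For Pdk1 the difference of effects was -0.39 ± 0.12 (edgeR adjusted p = 0.131). The 9 genes called with TGFB1 with HDAC1 only, among them Gapdh, Pkm and Slc2a1, are thus not shown to respond differently with EV. The share of all genes tested that was called with HDAC1 only was not computed.

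**Figure D5:**
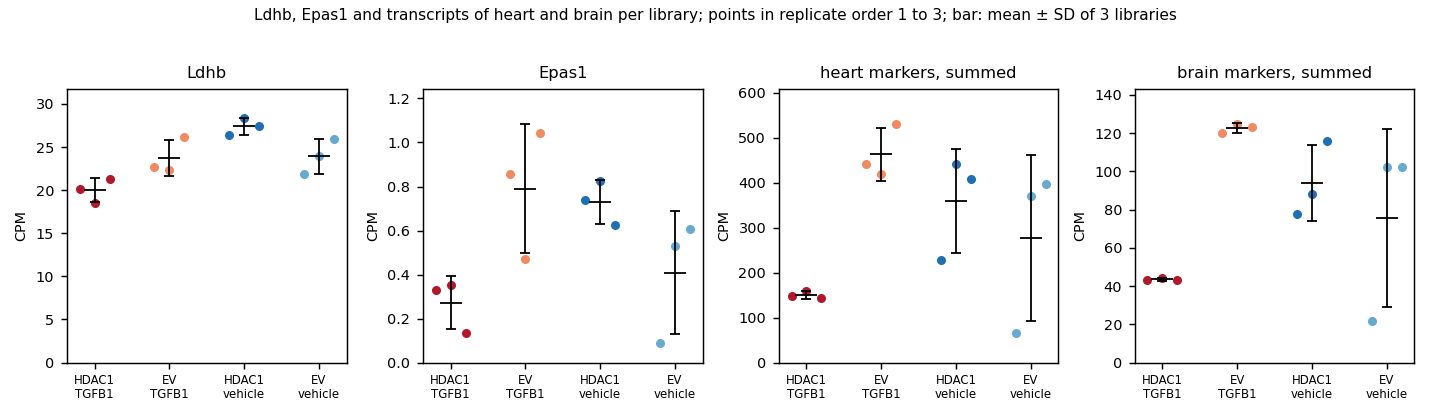
CPM of Ldhb and Epas1 and summed CPM of the heart and brain marker lists (vertical axes), per library in replicate order, in the order HDAC1 TGFB1, EV TGFB1, HDAC1 vehicle and EV vehicle (EV = empty vector). Heart sums were 143 to 159.6 CPM with HDAC1 and TGFB1 and 419 to 531 CPM with EV and TGFB1.

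In Ldhb and Epas1, the HDAC1 libraries lay below the EV libraries with TGFB1 and above them in vehicle. Ldhb was at 20.1, 18.6 and 21.3 CPM in the HDAC1 TGFB1 libraries against 22.6, 22.3 and 26.1 CPM in the EV TGFB1 libraries, and at 26.4, 28.4 and 27.4 CPM in the HDAC1 vehicle libraries against 21.8, 24.0 and 25.9 CPM in the EV vehicle libraries. Epas1, the gene of the second HIF alpha subunit, was at 0.331, 0.350 and 0.132 CPM in the HDAC1 TGFB1 libraries against 0.859, 0.471 and 1.04 CPM in the EV TGFB1 libraries, and at 0.740, 0.826 and 0.623 CPM in the HDAC1 vehicle libraries against 0.0884, 0.530 and 0.608 CPM in the EV vehicle libraries. Neither gene overlapped between HDAC1 and EV in either treatment, and the share of all genes tested with this pattern was not computed. Neither interaction was called (-0.44 ± 0.13 for Ldhb and -2.33 ± 0.72 for Epas1, edgeR adjusted p = 0.109 and 0.140). Heart marker sums moved the same way with TGFB1, at 148, 159.6 and 143 CPM with HDAC1 against 441, 419 and 531 CPM with EV, and brain sums at 43.3, 44.2 and 43.0 CPM against 119.8, 125 and 123 CPM. In vehicle, heart sums were 228, 443 and 407 CPM with HDAC1 against 65.0, 370.1 and 397 CPM with EV. Epas1 fell with TGFB1 in the HDAC1 libraries (-1.41, edgeR adjusted p = 0.0303), a call that ended with the heart covariate (-0.53, edgeR adjusted p = 0.515) and without HDAC1 vehicle replicate 1 (-1.40), HDAC1 vehicle replicate 2 (-1.35) or HDAC1 TGFB1 replicate 3 (-1.11).

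Other genes of the same pathways were counted from lists, to see how far the pattern with TGFB1 reached. Of 38 other HIF targets tested, 22 fell and 7 rose with TGFB1 with HDAC1, and 21 fell and 8 rose with EV (medians -0.29 and -0.26). Over all genes tested, 24.2% fell and 24.9% rose with HDAC1, and 25.0% fell and 25.9% rose with EV, the background for each of these lists. The risers included Plod2, a collagen lysyl hydroxylase (1.31 with HDAC1 and 1.20 with EV) and the cytokine Tgfb3 (1.45 and 1.07). Tgfb3 is also known as a TGF-beta target. Of 16 genes of the HIF machinery, 5 fell and 3 rose with HDAC1, and 5 fell and 4 rose with EV, close to the shares over all genes. Among those that fell were Arnt2, a partner of HIF alpha subunits (-0.39 and -0.53), and Os9 (-0.28 and -0.35). Arnt, the main partner, fell with EV by 0.55 on the log2 scale. In the HDAC1 libraries Arnt averaged 57.7 ± 1.52 CPM with TGFB1 against 68.0 ± 5.06 CPM in vehicle.

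Of 26 further glycolysis isozymes and transporters, 12 fell and 4 rose with HDAC1, and 7 fell and 4 rose with EV. Slc16a7 (MCT2), another monocarboxylate carrier, fell (-1.22 and -1.31), and Pgm2, a phosphopentomutase, and Pgam5, a mitochondrial phosphatase, rose (0.84 and 0.50 with HDAC1, 0.76 and 0.47 with EV). Among 33 genes of pyruvate use and the citrate cycle, 8 rose and 5 fell with HDAC1, and 11 rose and 5 fell with EV, so that the share that fell was below that over all genes and the share that rose with HDAC1 was close to it. Idh3a, an isocitrate dehydrogenase subunit, rose (0.44 and 0.58), while the pyruvate dehydrogenase kinase Pdk3 fell (-0.59 and -0.57). Of 22 pentose, serine and hexosamine genes in side branches of glycolysis, 9 rose and 7 fell with HDAC1, and 10 rose and 5 fell with EV. Gfpt2, which starts hexosamine synthesis, rose (1.58 and 1.74), whereas Uap1, a later hexosamine enzyme, fell (-0.85 and -0.81). Shmt2 of mitochondrial folate metabolism rose with EV (0.83). In the HDAC1 libraries Shmt2 averaged 232 ± 2.5 CPM with TGFB1 against 139 ± 4.4 CPM in vehicle. The ATF4 stress response had 16 rows tested for 15 gene symbols. Of these rows, 7 fell and 5 rose with HDAC1, and 8 fell and 4 rose with EV, with the proline enzyme Pycr1 higher (1.15 and 1.37). All named genes had an edgeR adjusted p of at most 0.00107 in the comparisons given as log2 fold changes.

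For HDAC1 against EV in the same lists, the counts with TGFB1 were 3 higher and 1 lower of 38 other HIF targets and 1 higher and 4 lower of 26 isozymes. Over all genes tested, 2.17% were higher and 4.36% lower with TGFB1. In vehicle the counts were 5 higher and 10 lower of the HIF targets and 2 higher and 1 lower of the isozymes, with 6.64% higher and 7.32% lower over all genes. Tfrc, the transferrin receptor, rose with HDAC1 with TGFB1 (0.95, edgeR adjusted p = 1.41e-05) and in vehicle (0.65, edgeR adjusted p = 8.06e-05). Bpgm, which makes 2,3-bisphosphoglycerate, fell in both (-0.53 and -0.40, edgeR adjusted p = 0.000723 and 0.00163). Mif, a cytokine gene induced by HIF, and Anln, an actin-binding protein of cell division, rose in vehicle (0.60 and 0.63, edgeR adjusted p = 0.000122 and 4.98e-05). Slc2a4 (GLUT4), the insulin-responsive transporter of muscle and fat, was at 0.353 to 0.441 CPM with HDAC1 and TGFB1 and 1.20 to 1.69 CPM with EV and TGFB1 (-1.84, edgeR adjusted p = 0.00912), a call that ended with the heart covariate (-0.998) and without HDAC1 TGFB1 replicate 3 (-1.75).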

How the data were processed

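Raw counts of the 12 libraries and a second table of normalized values were deposited by the authors. The deposited normalized signal was checked: it equals the count over 1 constant per library, and it holds the 14275 genes with at least 100 counts in all, 1539 of them without a symbol. The submitters' processing notes list Trim Galore 0.6.7, featureCounts of Subread 2.0.1 and DESeq2 1.44. They name the mouse build mm10, although the gene identifiers are those of rat. The aligner, the rat annotation, strand use and the handling of reads fitting several genes are not given in the sources used here.

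All tests used the raw counts of all genes. Of 43360 genes, filterByExpr of edgeR 4.0.16 (R 4.3.3) kept 14601. Counts were scaled with TMM and fitted in 1 robust quasi-likelihood model with a mean per group (8 residual degrees of freedom, common biological coefficient of variation 7.61%). Tests were two-sided, p-values were adjusted by Benjamini-Hochberg over all genes tested, and genes were called at an adjusted p under 0.05. The steps were tested on simulated data. A standard error is the log2 fold change divided by the square root of the F statistic. Isoform shares were tested by exact permutation over libraries within the levels of the other factor.

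Named were all listed genes and, of each other list and comparison, up to 3 called genes with the smallest adjusted p. The text shows only some of the latter. The genes and lists were chosen with earlier results of these data known. The main fit did not pair libraries by replicate number. Deviations from group means correlated at -0.087 to 0.118 between same-numbered libraries of different groups and at -0.115 to 0.092 between the others. Such correlations do not settle whether the design was paired. The settings varied were scaling (DESeq2 size factors), the test (DESeq2 1.42.0), the filter (none, or mean CPM from 1 up), the libraries fitted (compared groups alone), a replicate block, the log2 heart marker sum as covariate and single libraries left out. Heart, brain, liver, skeletal muscle, kidney tubule, endothelial, immune and fibroblast markers were summed per library. Skeletal muscle sums were 2.16 to 12.7 CPM, kidney tubule 1.54 to 6.73, endothelial 7.78 to 13.3, immune 92.8 to 219 and fibroblast 11673 to 25280.2 CPM.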

Additional observations from a re-analysis of the deposited data

Results flagged for a closer look

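In 2 of the listed genes the effect of HDAC1 pointed in opposite directions with TGFB1 and in vehicle, with every HDAC1 library below every EV library with TGFB1 and above in vehicle. The share of all genes tested with this pattern was not computed, so the count has no background. They were Epas1 (difference of log2 fold changes -2.33, edgeR adjusted p = 0.140) and Ldhb (-0.44, edgeR adjusted p = 0.109), and neither difference was called. With the log2 heart marker sum as covariate the differences were -0.84 and -0.24 (edgeR adjusted p = 0.952 and 0.936). Over the fits without 1 library they ran from -2.80 to -1.84 for Epas1 and from -0.50 to -0.36 for Ldhb. The Epas1 difference was called without the filter on low counts (-2.33, edgeR adjusted p = 0.0487).

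Outside the list, 3 named genes had a called difference between the HDAC1 effects with TGFB1 and in vehicle. Eno3, the muscle enolase, had a difference of -0.84 (edgeR adjusted p = 0.0287), with 16.2, 15.0 and 17.4 CPM in the HDAC1 TGFB1 libraries against 23.7, 20.1 and 20.5 CPM in the EV TGFB1 libraries, and 26.4, 30.8 and 29.1 CPM in the HDAC1 vehicle libraries against 16.8, 22.0 and 25.0 CPM in the EV vehicle libraries. Vsnl1, a brain marker, had -1.31 (edgeR adjusted p = 0.0167). Tgfb3 had 0.38 (edgeR adjusted p = 0.0399), with HDAC1 effects of 0.042 with TGFB1 and -0.34 in vehicle. Heart marker sums were 143 to 159.6 CPM with HDAC1 and TGFB1, 419 to 531 with EV and TGFB1, 228 to 443 with HDAC1 in vehicle and 65.0 to 397 with EV in vehicle. With the log2 heart sum as covariate the differences were -0.43 for Eno3, -1.04 for Vsnl1 and 0.28 for Tgfb3, none of them called (edgeR adjusted p = 0.827, 0.499 and 0.813). Of the 12 fits without 1 library, the call ended in 8 for Eno3 (-0.97 to -0.67 over the 12), in 2 for Vsnl1 (-1.45 to -1.18) and in 9 for Tgfb3 (0.35 to 0.41).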

How the results depend on the processing

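No listed gene that was called changed direction under any alternative. DESeq2 size factors, a filter on mean CPM (under which Epas1 was not tested), a fit to the groups compared and the replicate block changed no call of a listed gene, and the replicate block left every count within 1.5 times its value (correlations of same-numbered libraries -0.087 to 0.118, 2 of 18 pairs over 0.1). Outside the list, the block ended the call of the Tgfb3 interaction (0.38, edgeR adjusted p = 0.0607). Without the filter, 2 listed genes were lower with HDAC1 in vehicle, 1 had a lower interaction, and 479 genes in all had a called interaction. With the heart covariate, 0 listed genes were lower with HDAC1 with TGFB1, 102 genes in all were called there and 0 in the interaction. Heart sums of the HDAC1 TGFB1 libraries overlapped neither those with EV and TGFB1 nor those with HDAC1 in vehicle. In these comparisons the covariate cannot be fully separated from the groups. The DESeq2 test called 2 lower in vehicle and 2 higher with TGFB1 for HDAC1, and 270 genes in the interaction. The call it added in vehicle was Hif1a (-0.18, DESeq2 adjusted p = 0.0397). By edgeR, Hif1a with HDAC1 against EV was not called in vehicle (-0.19, adjusted p = 0.0642) or with TGFB1 (0.0048, adjusted p = 0.978). The cause of these shifts was not tested.

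Leaving out each library gave 1144 to 2166 called genes for HDAC1 in vehicle, 237 to 1236 for HDAC1 with TGFB1, 6210 to 6698 for TGFB1 with HDAC1, 6633 to 7263 for TGFB1 with EV and 3 to 257 for the interaction. HDAC1 in vehicle then had 3 to 6 listed genes higher and 0 to 2 lower, and HDAC1 with TGFB1 0 to 1 of each. All 17 calls for TGFB1 with EV and 22 of 25 for TGFB1 with HDAC1 held in every such fit, as did 2 of 7 for HDAC1 in vehicle and 0 of 1 with TGFB1. The HDAC1 difference ran from 1.92 to 2.57 points for the Hk2 share and from -1.71 to -1.22 for the Pfkp share. For the Slc16a3 share it ran from 0.015 to 0.27 points and was called without EV TGFB1 replicate 1. Shares from the normalized table changed no call. Epas1, Ankrd37 and Slc16a3 had the fewest counts of the listed genes and the widest standard errors for TGFB1 with HDAC1.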
